A study of Ovis aries with 3 samples.

Results

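Keratinocytes of the rumen wall that carried many transcripts of IGFBP2 together with COL17A1 were picked out of single-cell RNA libraries of young Hu sheep. A cell was a member if it held at least 5 KRT15 UMIs (unique molecular identifiers, 1 per captured transcript), at least 5 IGFBP2 UMIs and at least 1 COL17A1 UMI. It also held at most 1 UMI summed over the 3 division genes TOP2A, CENPF and NUSAP1, and no UMI of the 4 lineage genes PTPRC, C1QA, COL3A1 and PECAM1. Every barcode had at least 500 genes and under 20% of its UMIs from 13 mitochondrially encoded genes. These limits gave 2755 members among 10744 non-dividing keratinocytes, 15772 barcodes within the gene and mitochondrial limits and 25789 barcodes in all. The comparison cells were 2320 non-dividing keratinocytes with at most 1 IGFBP2 UMI and 0 COL17A1 UMIs.

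The rumen is lined by a stratified squamous epithelium that renews itself from a basal layer attached to the basement membrane. Basal keratinocytes hold on to that membrane with hemidesmosomes, in which COL17A1, a transmembrane collagen, and the integrin pair of ITGA6 and ITGB4 bridge keratin filaments and laminin, and they lose these anchors as they move up into the spinous, granular and cornified layers. IGFBP2 is a secreted protein that binds insulin-like growth factors and so sets how much of them reaches their receptor. KRT15 is a basal layer keratin.

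The study compared the feeding of lambs and asked, in its title, about keratinization of the rumen wall under early concentrate. There was 1 library per diet, all of rumen epithelium at 42 days: milk with concentrate starter, milk with alfalfa hay, and milk only. All 3 groups shared the breed, the age, the milk and the trypsin digestion that released the cells. Neither the number of lambs behind a library nor the feeding times were given, so the diet cannot be told apart from the animal or the library preparation, and no test between diets was possible.

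The libraries held between 7032 and 9543 barcodes and between 56861548 and 63057979 UMIs, and the barcode with the fewest UMIs had 1047 with concentrate, 2263 with hay and 727 with milk only. Between 15 and 28 barcodes were shared by any pair of libraries, 1 of them among the members. The doublet caller marked 1 of 15772 barcodes, which means that it did not work here, and doublets stayed in. Keratinocyte transcripts also appeared in barcodes of another lineage, and the part of free RNA and of doublets in this was not tested. Barcodes with at least 2 UMIs of PTPRC and C1QA, taken as immune, had an IGFBP2 UMI in 10.0% of 60 with concentrate, 12.5% of 32 with hay and 21.4% of 383 with milk only, and a COL17A1 UMI in 3.33%, 6.25% and 8.09%, at median depths of 3107, 3716 and 6313 UMIs. Their KRT15 UMI was present in 48.3%, 62.5% and 62.7%.

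The members were chosen by their IGFBP2, COL17A1, KRT15, division and lineage gene counts, so the levels of these genes are a description. On the CPM scale, on which the UMIs of a gene are set to a common total over the summed cells, IGFBP2 stood at 1019 in members with concentrate, 828 with hay and 1435 with milk only, against 93.4, 81.8 and 52.1 in comparison cells. COL17A1 stood at 197, 213 and 162 CPM in members and was 0 by choice in comparison cells. KRT15 stood at 8921, 8048 and 9647 CPM in members, against 6163, 6246 and 2666 in comparison cells. Most members held few UMIs of the genes that defined them. The median member had 9, 6 and 18 IGFBP2 UMIs and 2, 1 and 2 COL17A1 UMIs in the libraries with concentrate, hay and milk only, and a single COL17A1 UMI carried 47.6%, 57.7% and 39.7% of members.

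ITGA6 and the spinous, granular and cornified markers did not go against the basal label with concentrate and milk only, whereas with hay the granular and cornified markers were higher in members. Other basal genes were mixed with concentrate. ITGB4 stood at 19.1 CPM in members against 9.04 CPM in comparison cells, TP63 at 43.5 against 41.2, LAMB3 at 14.5 against 13.1 and CXCL14 at 20.3 against 24.1 CPM. KRT17, a keratin also listed as basal, was lower in members, at 1143 against 2240 CPM with concentrate and 1310 against 5962 CPM with milk only. ITGA6 was found in 74.4%, 67.5% and 81.5% of members with concentrate, hay and milk only, against 32.6%, 49.1% and 18.4% of comparison cells and 6.67%, 18.8% and 21.4% of the immune barcodes. In cells thinned to 5000 UMIs these shares were 57.0%, 51.5% and 54.7% of members, against 42.9%, 45.5% and 14.7% of comparison cells, of which 117, 864 and 80 were too shallow to thin. The spinous markers, summed, reached 237, 157 and 507 CPM in members, against 2806, 166 and 9801 CPM in comparison cells, and the granular and cornified markers 98.0, 132 and 472 CPM, against 3083, 76.6 and 9212 CPM. The comparison cells with concentrate and with milk only thus held upper-layer RNA, and those with hay held little of it. With hay the members held more of the granular and cornified markers, mostly SPINK5 at 112 against 60.3 CPM. KRT5 and KRT14 have no symbol carried by a single identifier in these files and gave no value. All 4 mast cell markers were at 0 in members, and the T and NK cell list reached at most 2.15 CPM and the macrophage list at most 4.96 CPM. The fibroblast list reached 20.6, 12.3 and 233 CPM in members, against 28.1, 0.625 and 23.8 CPM in comparison cells, nearly all of it DCN.

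Members made up 40.3% of non-dividing keratinocytes with concentrate (exact 95% interval 38.7% to 42.0%, 1356 of 3362 cells), 3.15% with hay (2.69% to 3.66%, 163 of 5176) and 56.0% with milk only (53.9% to 58.1%, 1236 of 2206). The intervals cover counting error only. The share with concentrate was 0.720 of that with milk only (0.681 to 0.761), and the share with hay was 17.8-fold lower than with milk only (15.2 to 20.8). The share with concentrate was 12.8-fold higher than with hay (10.95 to 14.98). Cells were deeper with milk only (median 11643 UMIs) than with concentrate (7576) or hay (5660), and a count limit finds more in deeper cells. After thinning every cell to 5000 UMIs, the shares were 19.96%, 1.43% and 27.2% with concentrate, hay and milk only, and the order held, with concentrate at 0.735 of milk only and hay 19.0-fold lower. The upper IGFBP2 range differed most. Cells with at least 10 IGFBP2 UMIs and COL17A1 made up 18.1% with concentrate, 0.270% with hay and 44.8% with milk only.

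The split between diets ran through IGFBP2 rather than COL17A1 in the thinned cells. At least 5 IGFBP2 UMIs were found in 45.0% of thinned non-dividing keratinocytes with concentrate, 4.21% with hay and 65.3% with milk only, whereas a COL17A1 UMI was found in 44.7%, 32.4% and 40.7%. Whether COL17A1 went with IGFBP2 depended on depth. In full counts, COL17A1 was found in 63.0% of cells with at least 5 IGFBP2 UMIs, against 41.0% of cells with at most 1, with concentrate, in 42.2% against 33.1% with hay, and in 67.0% against 21.4% with milk only. At 5000 UMIs the same shares were 44.4% against 44.2%, 34.0% against 31.8%, and 41.6% against 36.4%, and the intervals overlapped in each library.

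**Figure D1:**
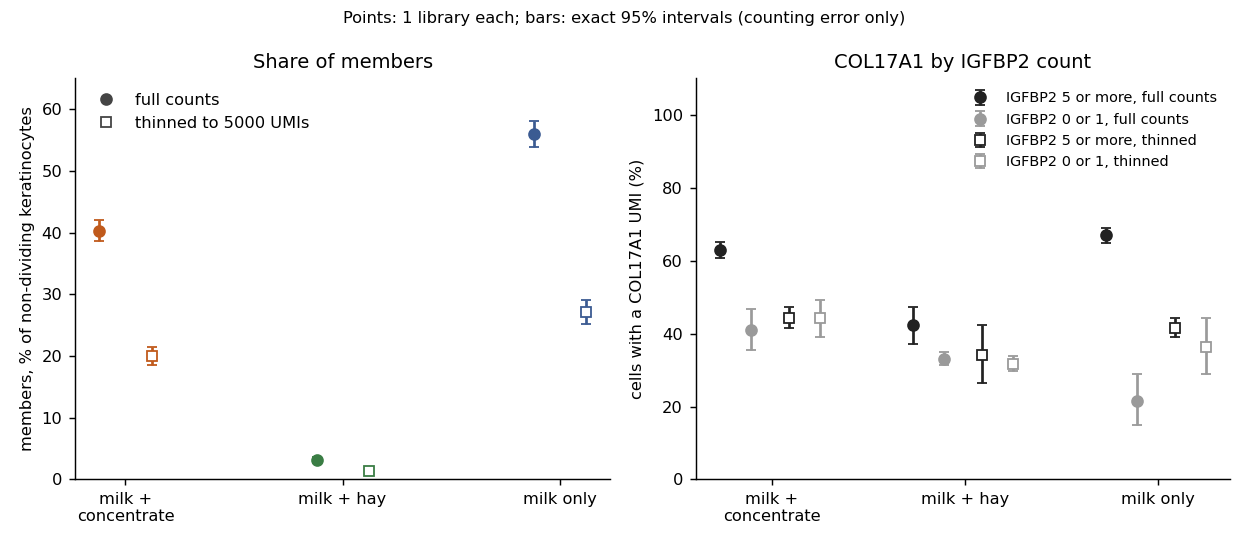
Left, the share of members among non-dividing keratinocytes (percent, vertical axis) in each library, in full counts (filled circles) and after thinning to 5000 UMIs (open squares), and right, the percent of cells with a COL17A1 UMI among those with 5 or more and with 0 or 1 IGFBP2 UMIs, with exact 95% intervals as bars. The library with hay lies at 3.15% and 1.43% on the left, below the other libraries, and on the right the thinned shares lie close together within each library.

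Cells just inside the IGFBP2 limit (5 or 6 UMIs) and just outside it (3 or 4 UMIs, with the other limits kept) were close in most genes. There were 355, 103 and 84 such cells inside and 367, 322 and 64 outside with concentrate, hay and milk only. ITGA6 stood at 179, 194 and 169 CPM just inside, against 177, 196 and 164 CPM just outside, and IGFBP6, a further binding protein of insulin-like growth factors, at 110, 145 and 292 CPM against 94.1, 112 and 244 CPM. Of 2954 genes measured, 0 passed 1.5-fold in the same direction in all 3 libraries. KRT36, a keratin, differed within libraries, at 4.61, 22.3 and 60.2 CPM just inside, against 28.2, 13.7 and 702 CPM just outside. In the library with hay 63.2% of members sat on its lowest step, against 26.2% with concentrate and 6.80% with milk only.

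Members were set against comparison cells with the UMIs of each population summed per library, which gave 3 pairs of sums. Each pair came from 1 library and 1 diet, so the p-values measure the spread between these libraries, and the labels do not say how many animals they stand for. A gene was called at an edgeR adjusted p under 0.05 and at least 1.5-fold, with the library as a block. Of 4146 genes tested, 1 was higher in members (0.0241% of genes) and 46 were lower (1.11%). The higher one was FMO2, a flavin monooxygenase, at 1.87, 0.768 and 90.6 CPM in members with concentrate, hay and milk only, against 0, 0.0892 and 9.06 CPM in comparison cells (log2 ratio 2.99 ± 0.45 SE, adjusted p = 0.0265). It rests on the library with milk only, since the other libraries held at most 26 UMIs of it.

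Of the 46 genes lower in members, 31 had a symbol. In the granular and cornified list 4 of 10 measured genes were lower and 0 higher, and in the interferon and class I list 2 of 12 were lower and 0 higher. TGM1, which joins the proteins of the cornified envelope, reached 4.82, 2.30 and 16.9 CPM in members, against 51.2, 2.59 and 489 CPM in comparison cells (log2 ratio -4.18 ± 0.66, adjusted p = 0.0302). PRD-SPRRII, a small proline-rich envelope protein, stood at 0.720, 0 and 22.5 CPM in members, against 35.2, 4.28 and 2236 CPM in comparison cells. GJB2, a gap junction connexin of upper keratinocytes, stood at 8.49, 1.54 and 8.70 CPM, against 72.3, 2.77 and 216 CPM. IL36A, PI3, CNFN, SULT2B1 and KLK12, all genes of the epidermal surface or its defence, were also lower. The interferon genes were ISG15, at 3.02, 0 and 35.6 CPM in members, against 31.1, 6.34 and 187 CPM in comparison cells, and IRF7, at 3.09, 0 and 17.5 CPM, against 22.1, 1.25 and 67.9 CPM. With hay these genes were low in both populations, so the calls come from the libraries with concentrate and milk only. KLK12 rests on milk only alone, with 0 UMIs in both populations of the other libraries. CNFN rests mostly on it, with 0 UMIs in members and 6 in comparison cells with concentrate. Of the 46 genes, 35 had the same direction in all 3 libraries. Without the milk only library 0 genes were called in either direction, with 320 at an unadjusted p under 0.05.

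Depth differed with the populations here. Median UMIs were 8998, 6911 and 12702 in members, against 4002, 5307 and 2653 in comparison cells. A further comparison, chosen after these values were seen, therefore read IGFBP2 and COL17A1 in cells thinned to 5000 UMIs, kept every other limit on full counts, and summed the full counts of the cells it found. It held 523, 46 and 519 members against 229, 1533 and 130 comparison cells with concentrate, hay and milk only. All of these members also met the limits in full counts, whereas 70, 1155 and 34 of these comparison cells did, so most of the comparison cells with concentrate and milk only held more IGFBP2 or COL17A1 UMIs than the first limits allow. Members were then the shallower cells, with medians of 8010, 6249 and 11548 UMIs against 9986, 6685 and 15253 UMIs. Median mitochondrial shares were 10.8%, 8.43% and 6.24% in members, against 11.6%, 10.2% and 9.80% in comparison cells. The member sum with hay rests on 46 cells, so low CPM values in it rest on few UMIs.

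With both genes read at 5000 UMIs, members were higher in the genes of basement membrane attachment and extracellular matrix and in immediate early genes, and lower in those of the upper layers, cholesterol synthesis and respiration. Of 4181 genes tested, 369 were higher (8.83%) and 412 were lower (9.85%). The median log2 ratio over all of them was 0.04. Of the 47 genes called in the first comparison, 35 could be tested and all 35 were called again, the other 12 lying under the filter on low counts. The cells overlap with those of the first comparison, so these repeated calls are not independent of it. With total UMIs as the only scaling, the split was 695 higher and 261 lower and the median of all genes shifted to 0.25, so ratios are read against 0.04 as scaled here. Without the library as a block, 0 genes were called in either direction, with 648 at an unadjusted p under 0.05.

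Among the hemidesmosome and basement membrane genes, 8 of 12 measured were higher and 0 lower, with a median log2 ratio of 0.74. ITGB4, the integrin chain specific to hemidesmosomes, stood at 23.1, 21.6 and 19.0 CPM in members with concentrate, hay and milk only, against 6.89, 10.0 and 5.30 CPM in comparison cells (log2 ratio 1.42 ± 0.25, adjusted p = 0.00613). Each member value lay above each comparison value, but the share of all tested genes without overlap was not counted. ITGA6, its partner, stood at 214, 148 and 196 CPM, against 116, 134 and 58.7 CPM (log2 ratio 0.77 ± 0.23, adjusted p = 0.0443), with the smallest gap in the library with hay. ITGA2, a collagen-binding integrin chain, stood at 80.6, 64.8 and 97.6 CPM, against 37.0, 27.5 and 38.2 CPM (log2 ratio 1.03 ± 0.16, adjusted p = 0.00368). LAMB1, a laminin chain, stood at 45.6, 37.0 and 82.8 CPM, against 17.0, 11.5 and 18.2 CPM (log2 ratio 1.57 ± 0.21, adjusted p = 0.00161). The groups did not overlap for either gene, with the same limit. ITGB1, FERMT1, COL4A5 and COL4A6 were also higher, whereas LAMA3 (log2 ratio 0.58), LAMC1, DAG1 and ITGAV did not pass the test.

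The list of basal identity was mixed, with 6 of 13 genes higher, 2 lower and a median of 0.60. FGFR2, the receptor of keratinocyte growth factor, stood at 68.8, 74.0 and 145 CPM in members, against 30.1, 21.6 and 36.7 CPM in comparison cells (log2 ratio 1.43 ± 0.19, adjusted p = 0.0017). EGFR, the receptor of epidermal growth factor, stood at 82.3, 77.1 and 136 CPM, against 39.2, 41.7 and 38.2 CPM, and its ligand AREG at 31.9, 142 and 162 CPM, against 17.0, 22.4 and 65.9 CPM. TP63, the master regulator of stratified epithelia, stood at 48.2, 27.8 and 63.1 CPM, against 26.8, 30.8 and 27.3 CPM, and did not pass (log2 ratio 0.60 ± 0.22, adjusted p = 0.0846). KRT17, a keratin of activated keratinocytes, was lower at 1144, 845 and 1048 CPM, against 1920, 1107 and 4048 CPM. DCN and POSTN, which stand in this list and in the matrix list, were also among the genes higher, and CXCL14 and MOXD1 were the rest.

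In the insulin-like growth factor axis, 4 of 7 measured genes were higher and 0 lower, with a median of 0.79. IGFBP6 stood at 156, 139 and 376 CPM in members, against 52.6, 64.3 and 125 CPM in comparison cells (log2 ratio 1.24 ± 0.15, adjusted p = 0.000849). SESN3, a stress-induced restraint on mTOR signalling, stood at 74.3, 33.9 and 38.7 CPM, against 27.2, 8.52 and 11.7 CPM, and PIK3R1, the regulatory subunit of the kinase downstream of the receptors, at 214, 111 and 328 CPM, against 117, 62.3 and 140 CPM. IGF2BP2, which binds IGF2 messenger RNA, was the other gene higher. IGFBP5 did not pass and ran against the rest in the library with hay, at 387, 46.3 and 268 CPM in members, against 266, 62.6 and 132 CPM in comparison cells. In the first comparison 0 of 7 genes of this list were called. PIK3R1 ran the other way there with concentrate, at 185 CPM in members against 245 CPM in comparison cells. The ligands and receptors were scarce in the members of the first gate. IGF1 had 0 UMIs, which allows up to 0.216, 2.30 and 0.165 CPM with concentrate, hay and milk only. IGF2 stood at 0.216, 0.768 and 9.70 CPM and the receptor IGF1R at 9.28, 6.91 and 8.87 CPM.

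Matrix and secreted proteins gave the highest list median, 1.56, with 11 of 14 genes higher and 1, ECM1, lower. CCDC80, a matrix protein of epithelia and fat, stood at 172, 333 and 488 CPM in members, against 41.7, 26.4 and 81.8 CPM in comparison cells (log2 ratio 2.53 ± 0.28, adjusted p = 0.00053). COL14A1, a collagen of fibril surfaces, stood at 37.5, 33.9 and 93.9 CPM, against 8.71, 6.37 and 5.68 CPM, and SERPINE2, an inhibitor of serine proteases, at 32.3, 21.6 and 46.2 CPM, against 6.53, 6.01 and 8.33 CPM. The groups did not overlap for these genes, but the share of all tested genes without overlap was not counted. COL8A1, a short-chain collagen, stood at 44.3, 67.8 and 104 CPM, against 14.5, 14.7 and 23.9 CPM. DCN, the proteoglycan decorin, stood at 22.3, 9.25 and 328 CPM, against 4.35, 0.359 and 33.7 CPM, and so was carried mostly by the library with milk only. In the first comparison CCDC80 and DCN ran the other way with concentrate, at 143 and 19.5 CPM in members, against 244 and 27.1 CPM in comparison cells, and the list had median log2 ratios of 0.19 with concentrate, 1.05 with hay and 3.04 with milk only, with 0 of 13 genes called. DCN is also a fibroblast marker. COL3A1 was 0 by choice in every cell, and the part of fibroblast RNA in the matrix result was not tested.

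Signalling genes rose in smaller numbers. SFRP1, a secreted Wnt inhibitor, stood at 83.3, 30.8 and 85.9 CPM in members, against 22.1, 12.8 and 18.6 CPM in comparison cells (log2 ratio 1.70 ± 0.20, adjusted p = 0.000761), and TCF7L2, a transcription factor of the Wnt pathway, was the other of 2 higher among 7 Wnt genes. TGFB1 and FST, an activin inhibitor, were the 2 higher of 4 TGF-beta and BMP genes. RBPJ, the DNA-binding partner of Notch, was the only one of 4 measured Notch genes to pass.

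Immediate early genes were higher in 12 of 15, with 0 lower and a median of 1.13. FOS stood at 465, 836 and 2211 CPM in members, against 248, 277 and 572 CPM in comparison cells, JUN at 555, 1338 and 2805 CPM, against 333, 375 and 1049 CPM, and ATF3 at 50.1, 105 and 570 CPM, against 20.3, 23.8 and 183 CPM. These genes respond within minutes to growth factors and to tissue dissociation, and the members exceeded the comparison cells within each library. In the first comparison the same list had a median log2 ratio of -1.29 with concentrate, 1.04 with hay and 3.07 with milk only, so the direction with concentrate was the other way round for the list median there. MT2A, a metal-binding metallothionein, stood at 71.8, 46.3 and 207 CPM, against 31.6, 14.1 and 24.6 CPM, and LMCD1, a transcriptional cofactor, at 23.1, 55.5 and 112 CPM, against 8.34, 11.7 and 17.4 CPM.

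The limit on division used TOP2A, CENPF and NUSAP1 and no gene of the S phase list, so cells in S phase could remain. Of 17 genes of the S phase, 8 were higher and 0 lower, with a median of 0.72. MCM3 and MCM4, parts of the replicative helicase, stood at 12.4, 27.8 and 10.8 CPM and at 24.4, 33.9 and 18.6 CPM in members, against 7.62, 9.96 and 3.79 CPM and 13.8, 19.5 and 4.92 CPM in comparison cells. Among 7 genes of G1 control, CCND2 (a D-type cyclin), CDKN1B, GADD45A and GADD45B were higher. CDKN1A, the inhibitor p21, was lower, at 7.28, 3.08 and 102 CPM, against 41.7, 8.43 and 172 CPM (log2 ratio -1.67 ± 0.31, adjusted p = 0.00821).

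Upper-layer genes were lower in members. In the granular and cornified list 6 of 8 genes were lower and 0 higher, with a median of -5.28, and in the spinous and desmosome list 7 of 10 were lower and 1, DSG2, was higher. TGM1 stood at 1.71, 0 and 8.55 CPM in members, against 40.3, 2.96 and 296 CPM in comparison cells (log2 ratio -5.24 ± 0.25, adjusted p = 1.89e-06). SPINK5, an inhibitor of the proteases that shed surface cells, stood at 16.3, 9.25 and 144 CPM, against 1664, 70.1 and 2180 CPM, and KRT36 at 11.4, 12.3 and 54.0 CPM, against 907, 30.9 and 4110 CPM. A2ML1, a protease inhibitor of the granular layer, stood at 3.64, 6.17 and 14.5 CPM, against 272, 14.0 and 1968 CPM, and AKR1D1, a steroid reductase, at 12.4, 24.7 and 8.40 CPM, against 205, 57.9 and 409 CPM. The antimicrobial calgranulins S100A8, S100A9 and S100A12 were lower as well, with S100A9 at 22.1, 6.17 and 178 CPM, against 270, 14.4 and 5637 CPM. Their list was split, with 4 of 11 inflammatory genes higher (TNFAIP3, BIRC3, NFKBIZ and NFKBIA, feedback regulators of NF-kappaB) and 5 lower. For TGM1, SPINK5, KRT36 and A2ML1 the comparison cells with hay held less than those with concentrate or milk only. In the first comparison SPINK5 and A2ML1 ran the other way with hay. They stood there at 112 and 17.7 CPM in members, against 60.3 and 13.6 CPM in comparison cells.

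Cholesterol synthesis and respiration were lower, and the other metabolic lists were mixed or had few calls. Of 9 genes of fatty acid, ion and urea transport 3 were lower and 1 higher, with a median of -0.47. Of 7 cholesterol synthesis genes, 6 were lower, with a median of -1.15. HMGCS1, the synthase that feeds the pathway, stood at 25.7, 21.6 and 13.3 CPM in members, against 50.4, 30.0 and 67.0 CPM in comparison cells, and NSDHL, a late step, at 18.6, 21.6 and 8.10 CPM, against 47.2, 27.1 and 27.3 CPM. Among nuclear genes of oxidative phosphorylation 20 of 47 were lower and 0 higher, with a median of -0.57. UQCRB, of respiratory complex III, stood at 314, 321 and 312 CPM, against 493, 456 and 691 CPM. In the first comparison 0 genes of either list were called. The cholesterol list there had median log2 ratios of 0.08 with concentrate, -0.11 with hay and -1.16 with milk only. Those of the respiration list were 0.09, -0.27 and -0.33, with 0.13, 0.18 and 0.44 over all genes. CA1, the carbonic anhydrase that is abundant in this tissue, stood at 33644, 13232 and 11239 CPM, against 37375, 22874 and 26980 CPM (log2 ratio -0.93 ± 0.20, adjusted p = 0.0137). FBP1, of gluconeogenesis, and GSTA1, a glutathione transferase, were lower, at 33.2, 55.5 and 10.3 CPM against 81.3, 112 and 35.97 CPM, and at 93.4, 15.4 and 262 CPM against 522, 32.3 and 1375 CPM. In the ketogenesis list 1 of 16 genes passed, the cholesterol gene HMGCS1. Of 11 glycolysis genes 1 was higher and 2 lower, of 7 retinoid genes 1 was higher and 3 lower, and of 9 genes of serine, one-carbon and nucleotide synthesis 0 passed, while 0 of 23 ribosomal protein genes and 0 of 25 translation factors passed in either direction.

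**Figure D2:**
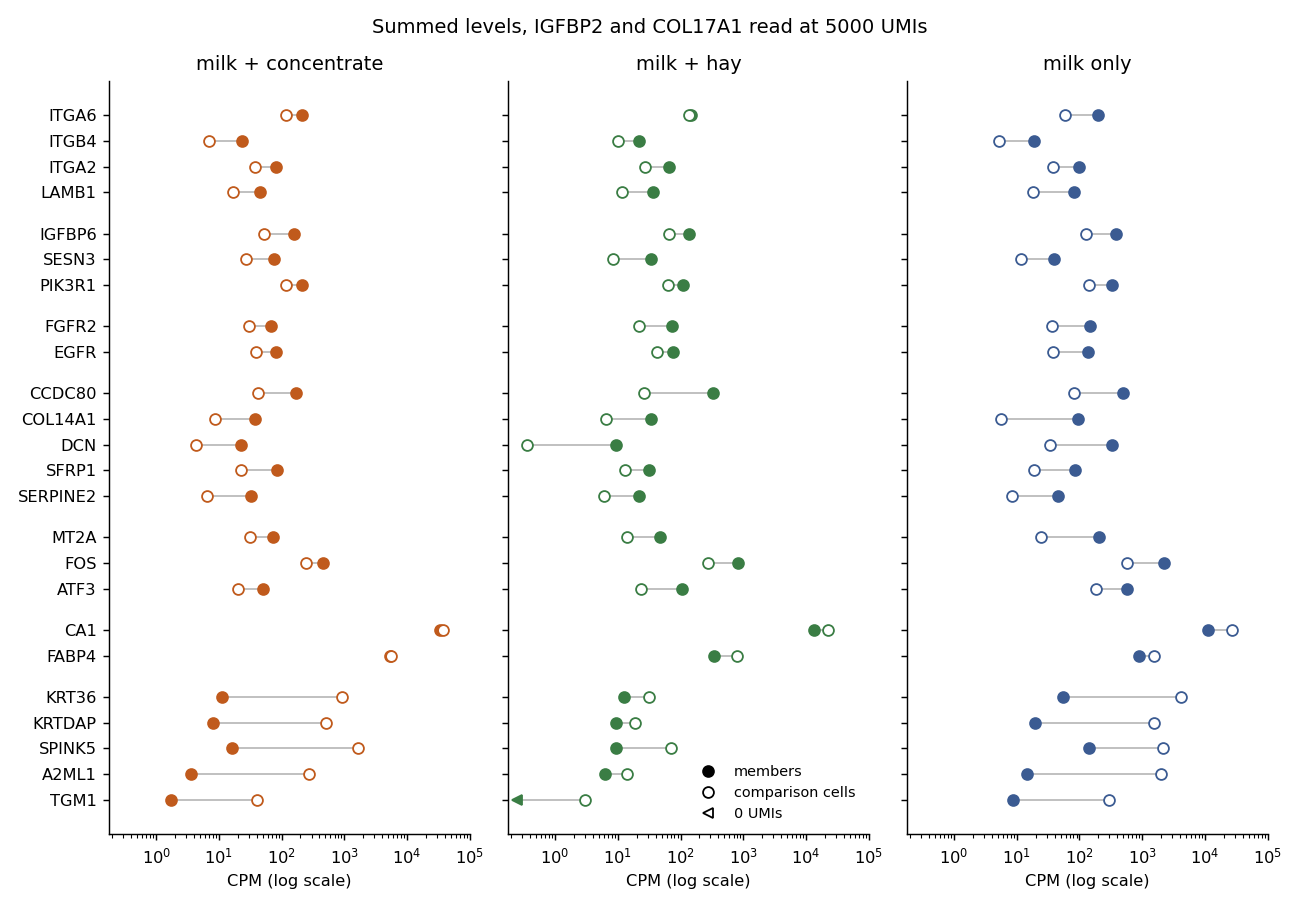
Summed level (CPM, log axis) of 24 genes in members (filled) and comparison cells (open), 1 panel per library, with IGFBP2 and COL17A1 read at 5000 UMIs and triangles for 0 UMIs. Adhesion, insulin-like growth factor, receptor, secreted and stress genes lie to the right in members and transport and upper-layer genes to the left, with the narrowest gaps of KRT36, SPINK5 and A2ML1 in the library with hay.

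**Figure D3:**
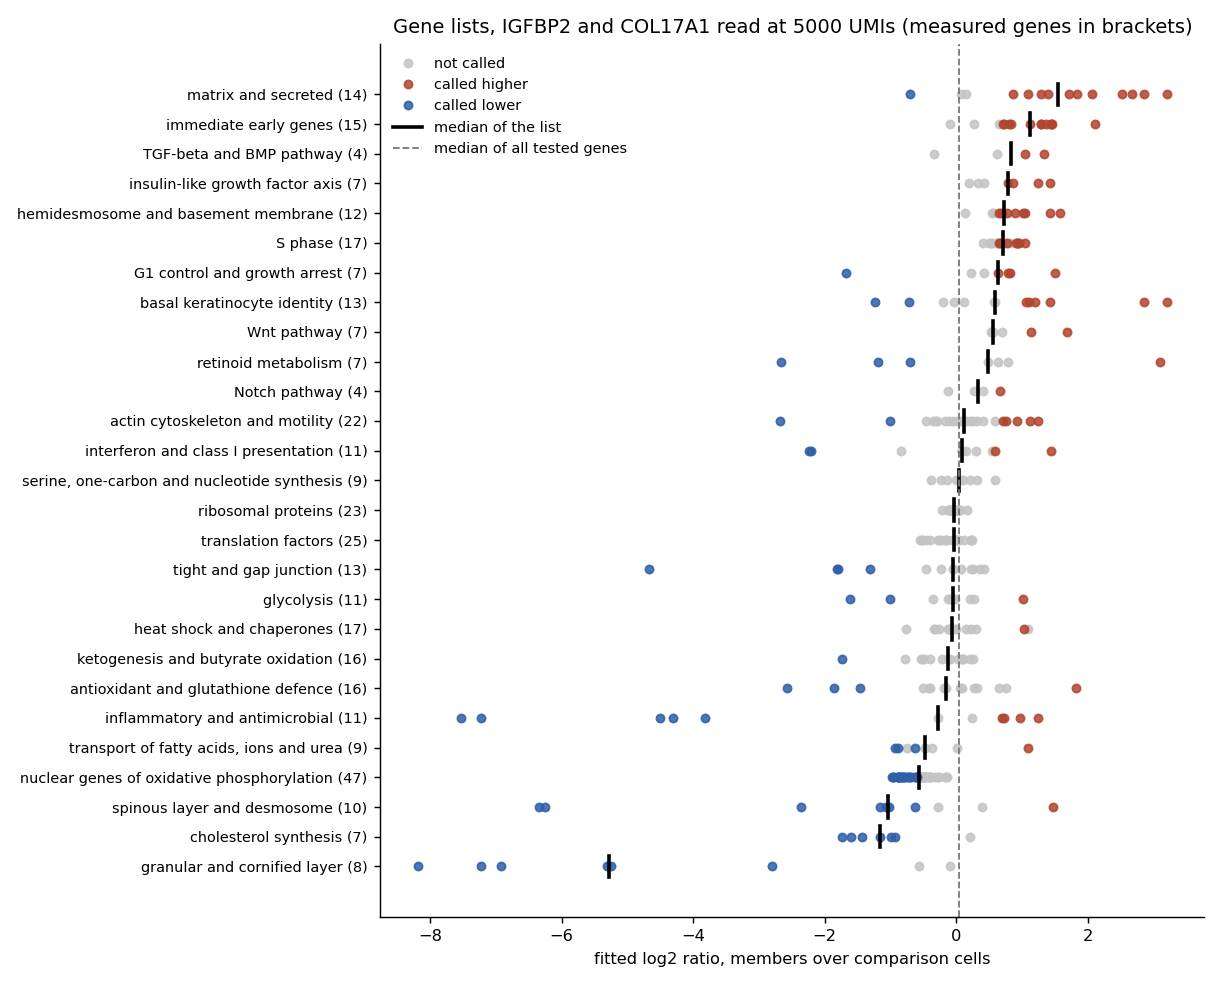
Fitted log2 ratio of members over comparison cells (horizontal axis) for each measured gene of the lists with at least 4 measured genes, with IGFBP2 and COL17A1 read at 5000 UMIs, in red for genes called higher, blue for genes called lower and grey for the rest, with black ticks for list medians. The medians run between 1.56 for matrix and secreted proteins and -5.28 for the granular and cornified layer, around the median of all genes at 0.04 (dashed).

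Members were next set against keratinocytes with the same IGFBP2 limit and 0 COL17A1 UMIs, a comparison also added after the data were seen. There were 798, 223 and 610 such cells with concentrate, hay and milk only. The split is by detection, as the median member held 2, 1 and 2 COL17A1 UMIs, so cells at 0 may still express COL17A1. Members were slightly deeper, with medians of 8998, 6911 and 12702 UMIs, against 8078, 6186 and 11429 UMIs. Of 4135 genes tested, 52 were higher in members (1.26%) and 38 were lower (0.919%). Higher were 3 of 22 genes of the actin cytoskeleton (MYH9, VCL and FLNA), 1 of 11 of the hemidesmosome and basement membrane (ITGB4) and 3 of 9 inflammatory genes (TNFAIP3, NFKBIZ and NFKB1). NFKB1 was lower in members with hay, at 8.45 against 9.84 CPM. TNFAIP3 was scarce outside milk only, at 3.67, 8.45 and 85.2 CPM in members, against 2.84, 1.97 and 38.9 CPM. MYH9, the heavy chain of non-muscle myosin, stood at 81.3, 49.9 and 42.6 CPM in members, against 42.7, 28.9 and 22.6 CPM in the cells without COL17A1 (log2 ratio 0.76 ± 0.09, adjusted p = 0.00483). APP, the amyloid precursor protein, stood at 51.2, 49.9 and 59.6 CPM, against 30.7, 24.9 and 30.9 CPM (log2 ratio 0.72 ± 0.10, adjusted p = 0.0101). DSP, the desmosome plaque protein desmoplakin, stood at 726, 418 and 255 CPM, against 432, 205 and 178 CPM (log2 ratio 0.60 ± 0.09, adjusted p = 0.0139). TRIM29, of the basal identity list, was higher as well.

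Lower in members than in IGFBP2-high cells without COL17A1 were 2 of 10 spinous and desmosome genes (KRT36 and KRTDAP, with DSP higher), 2 of 5 granular and cornified genes (TGM1 and A2ML1), 2 of 16 antioxidant and glutathione genes (GSTA1 and GSTM3) and 2 of 9 inflammatory genes (S100A9 and S100A12). KRTDAP and TGM1 were lower with milk only alone, at 83.1 against 215 CPM and 16.9 against 35.3 CPM. With concentrate and hay KRTDAP was higher in members, at 23.7 and 16.9 CPM against 22.3 and 9.84 CPM. TGM1 was likewise higher there, at 4.82 and 2.30 CPM against 3.98 and 0.656 CPM. A2ML1, GSTA1 and GSTM3 were higher in members with hay. KRT36 stood at 33.2, 17.7 and 206 CPM in members, against 52.1, 34.8 and 809 CPM (log2 ratio -1.50 ± 0.22, adjusted p = 0.0109). S100A9 stood at 25.8, 8.45 and 396 CPM, against 44.9, 15.1 and 902 CPM, and LYPD3, an adhesion protein of suprabasal cells, at 118, 39.9 and 108 CPM, against 146, 59.1 and 266 CPM. ATP6V1B1, a proton pump subunit, RBP2, a carrier of retinol, and CES2, a carboxylesterase, were also lower. ITGA6 missed the threshold, at 181, 173 and 164 CPM in members, against 137, 154 and 106 CPM (log2 ratio 0.28 ± 0.09, adjusted p = 0.054). With total UMIs as the only scaling, 230 genes were higher and 24 lower and the median of all genes shifted to 0.17, against 0.02 here, and without the library as a block 0 were called in either direction, with 125 at an unadjusted p under 0.05.

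Levels were then set out by both genes. IGFBP6 stood at 121, 131 and 325 CPM in members and 125, 131 and 244 CPM in cells with IGFBP2 alone, against 79.8, 69.7 and 209 CPM in cells with COL17A1 alone and 57.3, 64.0 and 74.7 CPM in cells with neither. MT2A stood at 59.8, 33.0 and 173 CPM in members and 58.3, 29.5 and 148 CPM with IGFBP2 alone, against 24.9, 14.2 and 14.4 CPM with COL17A1 alone and 21.1, 14.2 and 21.5 CPM with neither. Between members and cells with IGFBP2 alone, the edgeR log2 ratios of these genes were 0.00 ± 0.10 (adjusted p = 0.992) and -0.01 ± 0.09 (adjusted p = 0.957). Against cells with COL17A1 alone, edgeR called 0 of 4288 genes higher in members (0%) and 3 lower (0.07%; PI3 and a pair of genes without a symbol), with 248 at an unadjusted p under 0.05, so neither IGFBP6 nor MT2A passed there. APP stood at 53.7, 52.3 and 54.0 CPM with COL17A1 alone, close to members, and at 27.1, 26.9 and 9.06 CPM with neither. These 4 populations differed in depth, and those with COL17A1 alone were small, with 130, 1001 and 31 cells.

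Levels were also graded by IGFBP2 alone in non-dividing keratinocytes thinned to 5000 UMIs, in steps of 0, 1, 2 to 4, 5 to 9 and 10 or more IGFBP2 UMIs, as a description. IGFBP6 stood at 53.4, 87.4, 108, 154 and 192 CPM over these steps with concentrate and at 215, 204, 258, 316 and 424 CPM with milk only. With hay, where 1 cell reached the top step, it stood at 63.0, 83.0, 113 and 163 CPM over the lower steps. CCDC80 stood at 38.2, 110, 171, 184 and 201 CPM with concentrate, at 28.3, 48.4, 111 and 226 CPM with hay, and at 229, 361, 390, 473 and 510 CPM with milk only. Both genes were higher at more IGFBP2, apart from the first step of IGFBP6 with milk only, and the largest gaps of CCDC80 lay below the limit of 5 with concentrate and milk only. KRT36 ran the other way with milk only, at 553, 474, 196, 121 and 74.0 CPM, and with hay at 25.9, 23.3, 18.1 and 17.8 CPM. With concentrate KRT36 stood at 74.8, 11.8, 18.5, 10.7 and 4.76 CPM, with no steady order in the middle.

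**Figure D4:**
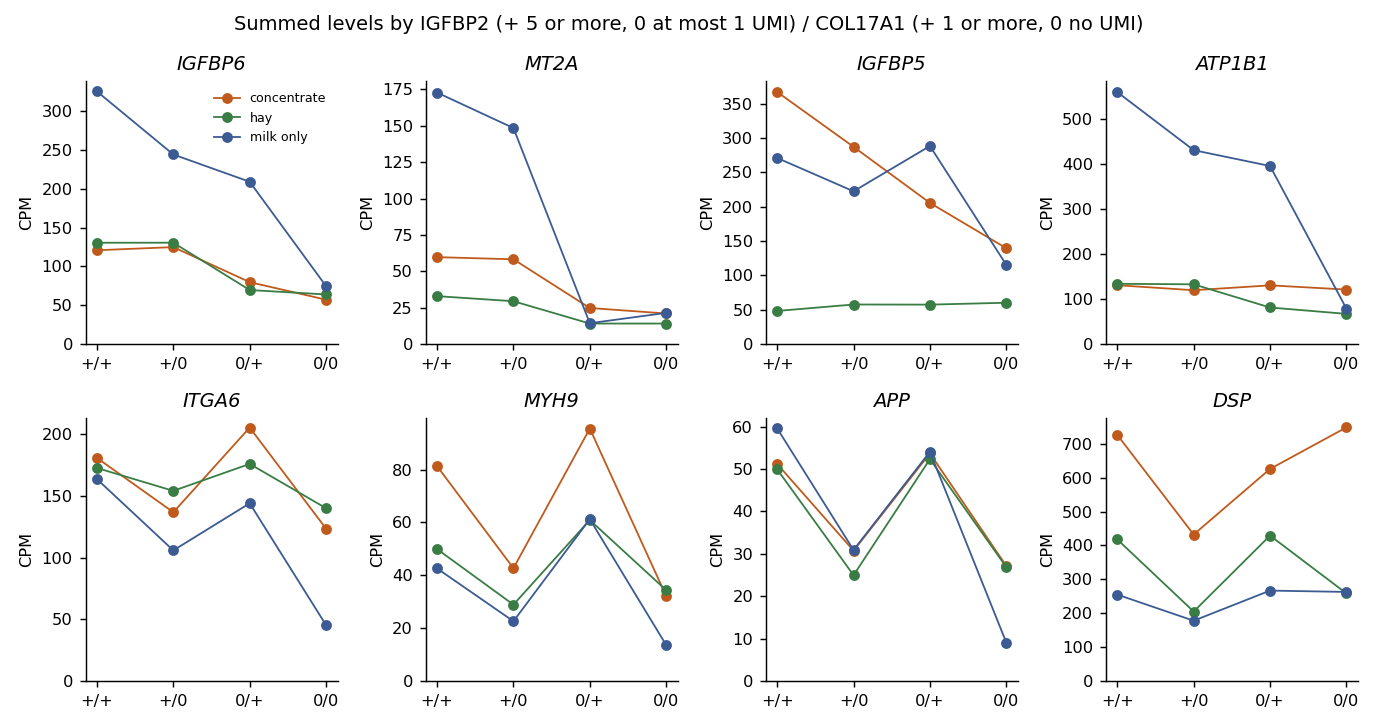
Summed level (CPM) of 8 genes in cells with 5 or more (+) or at most 1 (0) IGFBP2 UMI, then with (+) or without (0) a COL17A1 UMI, members at the left of each panel, 1 coloured line per library. IGFBP6 and MT2A lie close between the first 2 positions, apart from IGFBP6 with milk only (325 and 244 CPM), and lie lower at the third, whereas ITGA6, MYH9 and APP drop at the second and return at the third.

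Across diets, members were compared as summed cells of 1 library each. A gene was called at 2-fold or more, with an exact interval that left out equality and at least 20 CPM in 1 of the 3 sums. Counting error alone stands behind these calls. With concentrate over milk only, 108 of 3345 genes were higher (3.23%) and 227 lower (6.79%). With hay over milk only, 91 of 3344 were higher (2.72%) and 290 lower (8.67%). With concentrate over hay, 128 of 3338 were higher (3.83%) and 57 lower (1.71%). The comparisons share libraries, so their counts are not independent. Among the anchoring genes, ITGA6 stood at 181, 173 and 164 CPM with concentrate, hay and milk only. Of 8 hemidesmosome and basement membrane genes 0 were called with concentrate over milk only and 0 with concentrate over hay. With hay over milk only 2 were lower, LAMA3 at 57.8, 37.6 and 83.3 CPM and LAMB1 at 37.8, 29.2 and 66.9 CPM with concentrate, hay and milk only.

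Some genes of fatty acid handling, secretion and signalling were highest in members with concentrate. FABP4, a carrier of fatty acids, stood at 5960, 418 and 1480 CPM with concentrate, hay and milk only, and THEM5, a mitochondrial thioesterase, at 489, 26.1 and 120 CPM. LGALS1, the secreted lectin galectin-1, stood at 260, 3.84 and 14.4 CPM. PTHLH, the parathyroid hormone-related protein that keratinocytes secrete, stood at 89.5, 23.0 and 3.97 CPM. The order was the same in comparison cells for FABP4 (3709, 795 and 2311 CPM), THEM5 (214, 38.1 and 130 CPM), PTHLH (28.1, 11.7 and 0 CPM) and LGALS1 (141, 0.803 and 10.2 CPM), so none of these differences is shown to be particular to members. PSPH, of serine synthesis, stood at 120, 36.1 and 33.2 CPM, and CA1 at 37317, 13643 and 16936 CPM. GLO1, which detoxifies methylglyoxal, stood at 51.95, 12.3 and 30.1 CPM, EPHX2, an epoxide hydrolase, at 128, 62.96 and 32.9 CPM, and LIPA, the lysosomal acid lipase, at 119, 62.2 and 32.7 CPM, and each had the same order in comparison cells. MACC1, a regulator of growth factor receptor expression, stood at 91.0, 63.7 and 18.01 CPM in members, against 85.4, 58.0 and 78.1 CPM in comparison cells.

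With hay over milk only, 3 of 17 heat shock genes were higher in members and 0 lower. HSPA6, an inducible HSP70, stood at 45.2, 117 and 21.3 CPM with concentrate, hay and milk only, and HSPH1, its cochaperone, at 52.7, 140 and 63.8 CPM. PSMB8 and PSMB9, subunits of the immunoproteasome, stood at 16.9, 140 and 76.7 CPM and at 10.9, 130 and 53.4 CPM, which made PSMB8 and PSMB9 lowest with concentrate. IGFBP5 stood at 367, 48.4 and 271 CPM and GSTA1 at 187, 26.1 and 605 CPM. In comparison cells PSMB8 was also highest with hay (16.1, 76.0 and 18.1 CPM), as was HSPH1 (65.3, 113 and 54.3 CPM), and IGFBP5 was also lowest with hay (140, 60.3 and 115 CPM). HSPA6 was not highest with hay in comparison cells (44.2, 30.8 and 4.53 CPM), but was higher there with hay than with milk only. The heat shock list had a median log2 ratio for hay over milk only of 0.53 in members and 0.52 in comparison cells. Its higher level is thus not shown to be particular to members. PSMB9 in comparison cells was 12.1, 52.4 and 19.2 CPM, so it was higher in members with hay and with milk only. PCK2, the mitochondrial enzyme of gluconeogenesis, was also highest with hay, at 32.4, 55.3 and 17.9 CPM in members, and comparison cells had the same order at 24.1, 57.9 and 9.06 CPM. IDI1, of isoprenoid synthesis, stood at 56.3, 151 and 111 CPM. The sum with hay rests on 163 cells and 1302493 UMIs, against 13897647 with concentrate and 18152012 with milk only, and its intervals are the widest.

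Immediate early genes, inflammatory genes, DCN and IGFBP6 were highest in members with milk only. All 15 measured immediate early genes were lower with concentrate than with milk only (median log2 ratio -2.38, with 0.04 over all genes), and 11 of 15 were lower with hay (median -1.85, with -0.05 over all genes). ZFP36, which destabilizes messenger RNA of cytokines, stood at 149, 267 and 2612 CPM with concentrate, hay and milk only, and TNFAIP3, an inhibitor of NF-kappaB, at 3.67, 8.45 and 85.2 CPM. In comparison cells the median of the immediate early list was 1.06 for concentrate over milk only and -0.35 for hay over milk only. Of 9 inflammatory genes 8 were lower and 1 higher in each comparison with milk only, with medians of -2.95 (concentrate) and -3.33 (hay) in members and -1.42 and -2.87 in comparison cells, so the lower level is not shown to be particular to members. In comparison cells TNFAIP3 was 8.04, 2.95 and 21.5 CPM and ZFP36 486, 110 and 439 CPM. TFPI2, a protease inhibitor of the matrix, stood at 6.48, 13.8 and 110 CPM in members, against 7.03, 9.10 and 0 CPM in comparison cells, where 0 UMIs with milk only allow up to 3.40 CPM. RCAN1, a calcineurin inhibitor, stood at 7.34, 6.91 and 124 CPM in members. PDK4, which restrains pyruvate oxidation, stood at 17.3, 57.6 and 190 CPM. Some genes were lowest with milk only, among them RNASEH2C, of ribonuclease H2, at 194, 170 and 54.1 CPM, BRCA2, of DNA repair, at 69.4, 76.8 and 28.3 CPM, and LY96, a partner of the receptor for bacterial lipopolysaccharide, at 61.4, 56.8 and 20.99 CPM. IGFBP6 stood at 121, 131 and 325 CPM in members, and ATP1B1, a sodium pump subunit, at 131, 134 and 561 CPM. FMO2 stood at 1.87, 0.768 and 90.6 CPM and DCN at 19.5, 10.7 and 233 CPM. Median mitochondrial shares of members moved with the diets as well, at 10.7%, 8.97% and 6.86%, as did their depth, and the part of cell handling in these differences was not tested.

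Other lists also differed within members. With concentrate over milk only, 5 of 5 granular and cornified genes were lower (median -3.24, and -2.98 in comparison cells), as were 5 of 10 interferon and class I genes, 6 of 12 matrix genes (2 higher), 2 of 3 genes of the EGF family, 4 of 13 basal identity genes (1 higher) and 3 of 7 genes of G1 control. With hay over milk only, 5 of 5 granular and cornified genes were lower (median -1.86, and -8.18 in comparison cells), 5 of 12 matrix genes were lower and 2 higher, and 3 of 6 genes of the insulin-like growth factor axis were lower. In several lists few genes were called. Between concentrate and milk only, 0 of 46 respiration genes, 0 of 23 ribosomal protein genes and 0 of 7 cholesterol synthesis genes were called, and 1 of 15 S phase genes was. BDH1, which makes hydroxybutyrate, was not called against milk only, at 535, 788 and 410 CPM with concentrate, hay and milk only.

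**Figure D5:**
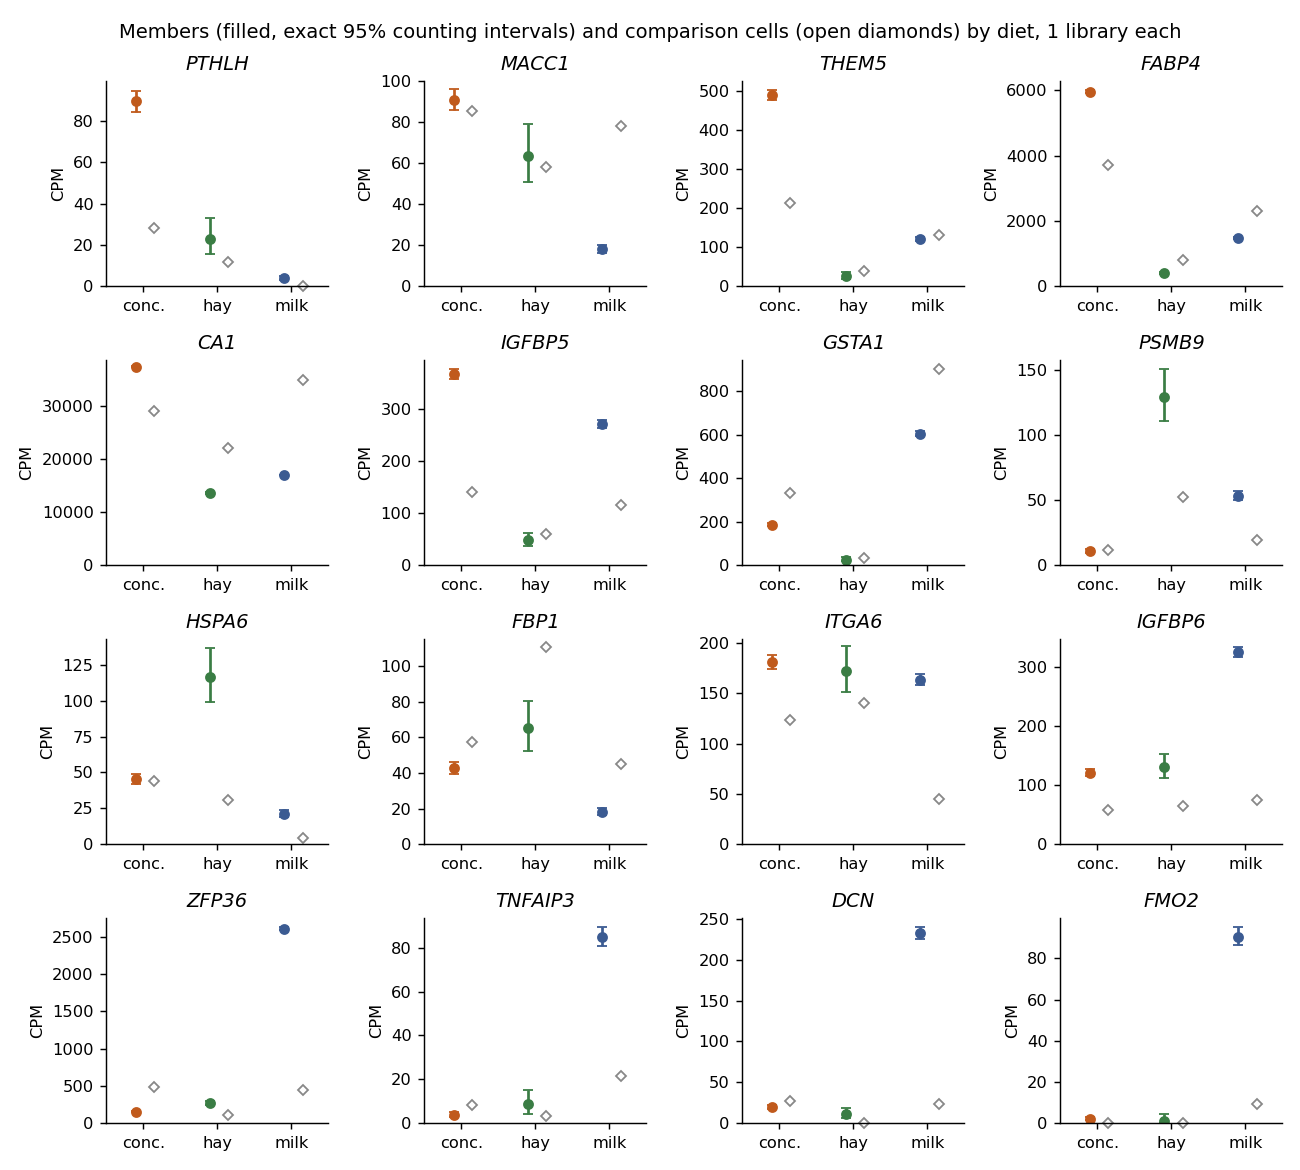
Summed level (CPM, vertical axes that start at 0) of 16 genes by diet in members (filled circles with exact 95% counting intervals) and in comparison cells (open diamonds), 1 library per diet. In members, PTHLH, THEM5 and FABP4 are highest with concentrate, and PSMB9 and HSPA6 with hay. ZFP36, TNFAIP3, DCN and FMO2 are highest in members with milk only, while ITGA6 in members stays between 164 and 181 CPM.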

How the data were processed

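UMI counts per gene and barcode came from 3 droplet libraries of sheep rumen epithelium, 1 per diet, grouped by sample title. The authors deposited raw counts made with Cell Ranger, whose version is 3.1 per the submitters' processing notes and 5.0.0 per the file headers. Genome build, annotation and barcode selection: not given in the sources used here. Of 26247 genes, 14653 had an unshared symbol, taken from the deposited gene list, and paralogues such as the S100, keratin and heat shock genes may share reads.

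The members and gene lists were chosen with earlier results of these data known. Cells are not replicates, so raw UMIs were summed per library and population, and edgeR 4.0.16 in R 4.3.3 (quasi-likelihood test, TMM, library as block, mean of at least 10 CPM over 6 sums, gate genes left out of calls, Benjamini-Hochberg adjustment) compared members with comparison cells. DESeq2 1.42.0 was an alternative. SEs are of the log2 ratio. Diets had 1 library each, so they were compared by ratios of CPM with exact conditional intervals for counting error at 95%. Shares have exact Clopper-Pearson intervals. Cells were thinned to 5000 UMIs by drawing without replacement. A count of 0 was given an upper limit of 3 counts. Scripts used Python 3.11.15 and were tested on simulated counts with known changes. The text names the gate genes, the called genes with at least 50 CPM and the same direction in all 3 libraries (the 12 highest and 12 lowest between populations, the 8 highest and 8 lowest between diets), and up to 4 genes per list with the largest log2 ratios. Other genes named were chosen after their values were seen. The same-numbered library of each population comes from the same tissue, which is the pairing used. Some results are not reported here.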

Additional observations from a re-analysis of the deposited data

Results flagged for a closer look

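The median log2 ratio of immediate early genes between members and comparison cells differed between libraries by 4.35 (highest minus lowest), at -1.29 with concentrate, 1.04 with hay and 3.07 with milk only. That of inflammatory and antimicrobial genes differed by 2.91, at -2.18, 0.74 and -1.95. These differences between single libraries were not tested. Barcodes at or above the mitochondrial limit, which no comparison used, also held cells that met the other limits, 8.56% of 1565 with concentrate, 0.721% of 1942 with hay and 10.2% of 510 with milk only.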

How the results depend on the processing

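Between members and comparison cells, counts of genes higher and lower were 4 and 80 with DESeq2, 76 and 325 without the filter on low counts, 6 and 95 in depth-matched cells, 7 and 120 with at least 10 IGFBP2 UMIs, 167 and 172 with all limits read on thinned cells, and 0 and 0 without the library as a replicate block, against 1 and 46 as reported. Higher genes numbered 3 without the deepest cells and 3 with at least 1000 genes per cell. Leaving out 1 library gave 0 to 40 higher and 0 to 209 lower, the highest without hay and 0 without milk only. Alternatives chosen after the data were seen gave 52 higher against IGFBP2-high cells without COL17A1, 0 and 3 against cells with COL17A1 and at most 1 IGFBP2 UMI, 369 and 412 with both genes read at 5000 UMIs, and 379 and 441 in a second draw, with 650 of 781 genes shared between draws. With both genes read at 5000 UMIs, total UMIs alone gave 695 and 261, no library block 0 and 0, and leaving out 1 library 67 to 472 higher (67 without concentrate, 154 without milk only) and 134 to 541 lower. Against IGFBP2-high cells without COL17A1 the counts were 230 and 24 with total UMIs alone and 0 and 0 without the block, with 36 to 68 higher and 17 to 40 lower when 1 library was left out. Share ratios moved most with at least 10 IGFBP2 UMIs, to 0.405 for concentrate over milk only, 0.00604 for hay over milk only and 67.1 for concentrate over hay. With at least 2 COL17A1 UMIs they were 0.626, 0.0395 and 15.9, with at least 1000 genes hay over milk only was 0.0697 and concentrate over hay 10.8, and over all barcodes within the limits concentrate over milk only was 0.864 and hay over milk only 0.0722. Diet counts, higher and lower, were 66 and 130 (concentrate over milk only), 45 and 142 (hay over milk only) and 43 and 35 (concentrate over hay) at 50 CPM or more, and 583 and 1233, 277 and 746, and 358 and 180 without a filter. Concentrate over hay gave 212 and 100 in thinned cells, 154 lower with at least 10 IGFBP2 UMIs and 87 lower with at least 2 COL17A1 UMIs, and hay over milk only 149 higher in thinned cells. The cause of these changes was not tested. Of 335 named diet ratios, 321 moved by less than their counting interval with median-of-ratios size factors. The sums with both genes read at 5000 UMIs rest on 46 to 523 members a library, the fewest with hay.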
